A study of Homo sapiens with 6 samples.

Results

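Transcripts of 10 genes that encode the CAS scaffold proteins and the kinases and adaptors that work with them were followed in HGC-27 cells after knockdown of ACAT2. The 10 genes are NEDD9, BCAR1, EFS and CASS4 (the CAS family), PTK2, PTK2B and SRC (kinases), and CRK, CRKL and PXN (adaptors), out of 58735 genes in the deposited table. They were selected by symbol around NEDD9, which had been picked for its difference between the 2 groups compared here, so the NEDD9 values are given as a description without a test. HGC-27 is a human gastric cancer cell line. Both groups were exposed to the pSIH-H1-Puro vector for 24 hours and then kept under puromycin for 7 days. In the shACAT2 group (libraries shACAT2-1, shACAT2-2 and shACAT2-3) the vector encoded a hairpin against ACAT2, a cytosolic thiolase that joins acetyl-CoA units. In the shNC group (libraries shNC-1, shNC-2 and shNC-3, genotype WT in the labels) it was the control. The labels do not say which ACAT2 hairpin was carried, so effects of 1 hairpin and of ACAT2 loss cannot be told apart, and both groups are selected populations of 1 cell line. Values of a group with 3 numbers are given in the order of the replicate numbers. The comparison asks how transcripts of the focal adhesion machinery differed after ACAT2 knockdown in cells whose motility the study also examined.

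CAS proteins are scaffolds without enzymatic activity of their own. At focal adhesions, where integrins tie the matrix to actin, FAK (the product of PTK2) and SRC bind the CAS scaffolds and phosphorylate them on tyrosine. CRK and CRKL then dock on the phosphorylated scaffold and recruit exchange factors for RAC1 and RAP1, small GTPases that drive membrane protrusion and adhesion. Paxillin (PXN) is the adaptor that gathers FAK, vinculin and other proteins at the same sites, and NEDD9 is known for its part in the migration and invasion of tumour cells.

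Expression was measured as FPKM, fragments scaled by exon length and library size, and each library held between 14086416 and 16067486 fragments on genes. ACAT2, the targeted gene, fell from a control level of 12.9 ± 1.25 FPKM to 5.90 ± 0.388 (SD, n = 3 each, limma adjusted p = 0.00594), although 52.3% of its exon bases are shared with genes on the opposite strand. The epithelial markers KRT18, KRT19 and EPCAM lay between 0 and 0.212 FPKM, and CDH1, which encodes E-cadherin, at 0.120 to 0.222 FPKM in shNC and 0.608 to 1.15 in shACAT2 cells. KRT8 overlapped between groups, at 0.385 to 0.608 FPKM in shNC and 0.516 to 0.785 in shACAT2 cells. So did CLDN4, at 0.3474 to 0.6291 and 0.3455 to 0.6303 FPKM. Of the 2 mesenchymal markers CDH2 did not exceed 0.0808 FPKM, and VIM lay at 246 to 292 FPKM in shNC and 341 to 461 in shACAT2 cells. The summed level of the 6 epithelial markers was 0.978 to 1.43 FPKM in shNC and 1.79 to 2.69 in shACAT2 cells, that of 7 blood cell markers 2.49 to 3.01 and 2.28 to 2.93, and that of 5 endothelial and muscle markers 0.329 to 0.446 and 0.465 to 0.949. In the endothelial and muscle list, DES was highest in shACAT2-1 (0.722 FPKM) and VWF in shACAT2-3 (0.257 FPKM). The epithelial, the mesenchymal and the endothelial and muscle sums did not overlap between groups, though not every marker in them separated. The part of these shifts in the results was not tested. In bulk RNA, fewer cells that express a gene and less RNA per cell cannot be told apart. In shACAT2-3, 7477 genes had a fragment only there (416 to 657 in each of the other libraries), and genes silent elsewhere held 0.743 fragments per kb. Within groups, the chi-square between fragment counts was 1.73 per gene for the pair of shNC-2 with shNC-3 and 12.1 to 46.0 for the other pairs. The p-values measure the spread between these libraries.

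NEDD9 was among the lowest of the 10 genes in control cells and lay above SRC in knockdown cells. It lies on the minus strand of chr6:11183298-11382348 (hg38). It measured 0.202, 0.167 and 0.174 FPKM in the shNC libraries and 1.26, 1.36 and 1.59 FPKM in the shACAT2 libraries. Every shACAT2 library was above every shNC library, and the 3 libraries within each group lay close together. Mean NEDD9 was 7.76 times as high after knockdown, at 1.40 ± 0.169 FPKM against 0.181 ± 0.0186 in the control (SD, n = 3 each). These levels rest on 28 to 32 fragments per shNC library and on 198, 234 and 247 fragments in the shACAT2 libraries. At the rate of genes silent elsewhere, shACAT2-3 would hold 7.69 fragments on a gene as long as NEDD9, against the 247 seen.

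On the scale of log2(FPKM + 1), used for the limma fits unless stated, NEDD9 was higher in shACAT2 cells by 1.02 (SE 0.14). That scale understates the difference of a gene so low in the control cells. With 0.1 in place of 1 FPKM added, the NEDD9 difference was 2.42, and 2.88 in limma-voom on fragments. Leaving out any 1 library gave differences from 0.97 to 1.07. NEDD9 passed the filter of a mean of 1 FPKM in either group through the shACAT2 libraries alone. Of the NEDD9 exon bases, 0.512% are shared with another annotated gene.

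NEDD9 has 14 annotated start positions in GENCODE 29, and gene-level values do not tell which start gave the added transcripts. The sequence just upstream of its distal and its proximal RefSeq start is shown because both could feed the NEDD9 level, with the upstream-most BCAR1 start for comparison with another scaffold. The set of RefSeq (GRCh38.p14) promoter windows used here covered 6 of the 10 genes. It held none for SRC, CASS4, PTK2 and PTK2B, which says nothing about their starts in RefSeq itself. The EFS window lay within an annotated exon and is not printed. Only bases before the first annotated exon base are printed, 5′ to 3′ along the transcript, and capitals mark a match to the motif named after them.
NEDD9 distal, minus strand, chr6:11382349-11382598: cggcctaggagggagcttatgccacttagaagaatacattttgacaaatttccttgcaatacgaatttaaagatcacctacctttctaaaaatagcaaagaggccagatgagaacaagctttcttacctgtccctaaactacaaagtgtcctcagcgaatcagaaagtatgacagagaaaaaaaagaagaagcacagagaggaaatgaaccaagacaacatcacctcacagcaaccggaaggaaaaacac
NEDD9 proximal, minus strand, chr6:11232683-11232918: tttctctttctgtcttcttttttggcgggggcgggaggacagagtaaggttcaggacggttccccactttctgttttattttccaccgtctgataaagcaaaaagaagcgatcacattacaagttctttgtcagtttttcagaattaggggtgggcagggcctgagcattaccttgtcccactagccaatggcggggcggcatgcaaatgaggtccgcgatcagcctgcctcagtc
BCAR1, minus strand, chr16:75268054-75268257: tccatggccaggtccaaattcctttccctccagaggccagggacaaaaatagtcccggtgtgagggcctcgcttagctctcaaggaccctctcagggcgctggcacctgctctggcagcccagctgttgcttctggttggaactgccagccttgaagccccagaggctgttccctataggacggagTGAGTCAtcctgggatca

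Both strands were searched for GGAATG (a core bound by TEAD factors), TGANTCA (the AP-1 site) and the CArG box (the site of SRF), motifs chosen after the expression values were seen. Neither NEDD9 window held a match, and the BCAR1 window held 1, the AP-1 letters shown in capitals. Among all 35116 windows in the table, 11.9% held GGAATG, 6.57% TGANTCA and 1.16% a CArG box, and with 1 match in the windows printed no motifs overlapped. The GC content was 40.4% in the distal and 50% in the proximal NEDD9 window, against a mean of 57.2% over all windows. A missing match says only that these letters are not in the window.

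Of the other CAS scaffolds, limma called neither of those tested, with BCAR1 higher and EFS lower in mean level in shACAT2 cells. BCAR1 encodes p130CAS, the founding member of the family, and lies on chr16:75228187-75268053. It measured 9.31, 8.004 and 8.63 FPKM in the shNC libraries and 13.9, 10.9 and 8.52 FPKM in the shACAT2 libraries. The groups overlapped, since shACAT2-3 fell within the range of the control libraries. The BCAR1 difference was 0.30 on the log2(FPKM + 1) scale (95% confidence interval −0.09 to 0.70, limma adjusted p = 0.322). Without shACAT2-1 it was 0.14, and without shACAT2-3 it was 0.47 (limma adjusted p = 0.0976), against adjusted p from 0.0976 to 0.643 over all 13 alternatives. Of its exon bases, 8.71% are shared with other annotated genes.

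EFS, the embryonal FYN-associated substrate also called SIN, had the highest FPKM of the scaffolds in the control cells. It lies on chr14:23356402-23365752 and measured 14.5, 13.6 and 13.8 FPKM in the shNC libraries. In the shACAT2 libraries it measured 12.3, 10.6 and 7.93 FPKM. The groups did not overlap, with the smallest two-sided p that an exact permutation test of 3 against 3 can give, 0.1. The EFS difference was −0.43 on the log2(FPKM + 1) scale (−0.79 to −0.07), and it did not pass the threshold over all genes (limma adjusted p = 0.154, unadjusted p = 0.0264). Without shACAT2-3 the difference was −0.27. Of the EFS exon bases, 8.8% are shared with another annotated gene on the opposite strand.

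CASS4, the remaining scaffold, lay under the filter. It measured 0.103, 0.134 and 0.0343 FPKM in the shNC libraries and 0.0130, 0.0237 and 0.250 in the shACAT2 libraries. These values stand for 8, 11 and 3 and for 1, 2 and 19 fragments. The highest value came from shACAT2-3, where the rate of genes silent elsewhere would put 3.76 fragments on CASS4, and the groups overlapped. In the fit without a filter the CASS4 difference was 0.00088 (limma adjusted p = 0.998).

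**Figure D1:**
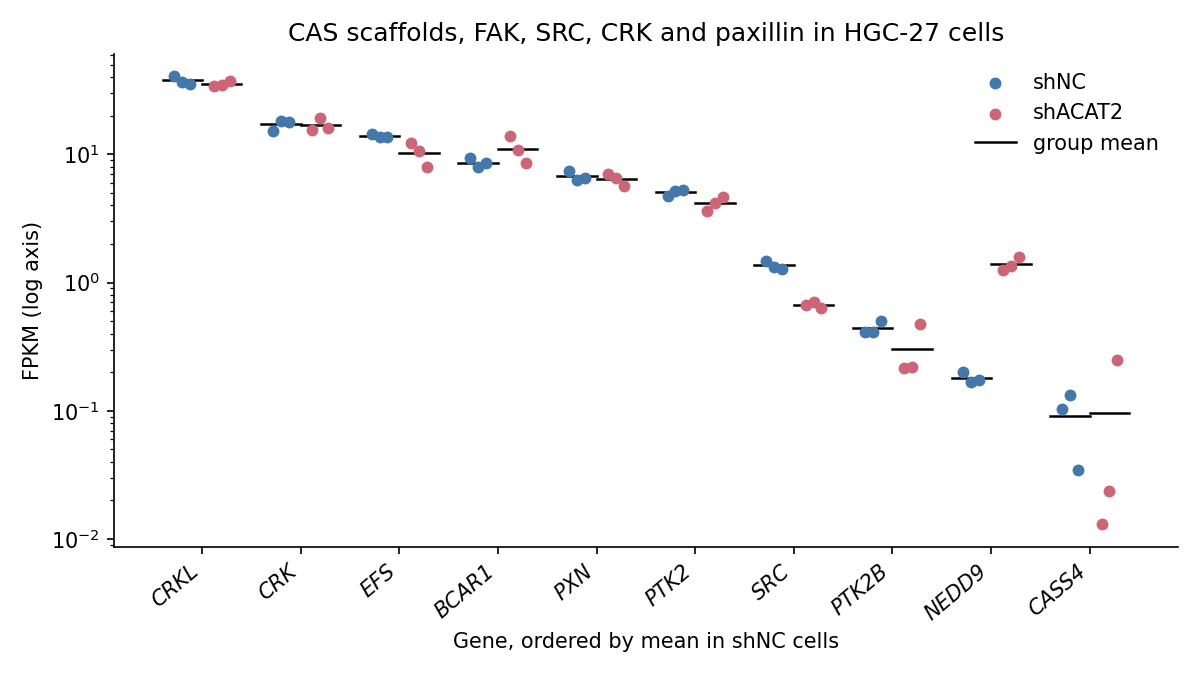
FPKM of the 10 genes on a log axis, with 1 point per library, shNC in blue and shACAT2 in red, and a line at each group mean. NEDD9 moves from 0.181 to 1.40 FPKM and SRC from 1.36 to 0.669, while CRK, CRKL and PXN overlap between groups.

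FPKM divides by the summed exons of all annotated transcripts, so the order of the 4 scaffolds within a library depends on those lengths. BCAR1 (9178 bases) held more fragments than EFS (3237 bases) in every library. These were 1308, 1191 and 1365 against 718, 716 and 769 in shNC cells. In shACAT2 cells they were 1935, 1660 and 1174 against 605, 569 and 385. The lengths of the transcripts expressed were not tested, so the shares below describe FPKM only. EFS made up 60.1%, 62.2% and 60.9% of the summed CAS family FPKM in the shNC libraries, and 44.8%, 46.3% and 43.3% in the shACAT2 libraries. BCAR1 made up 38.6%, 36.5% and 38.1% in the control libraries and 50.6%, 47.6% and 46.6% in the knockdown libraries. NEDD9 made up 0.837%, 0.760% and 0.768% and then 4.58%, 5.95% and 8.69%. All 3 shares separated the groups. By FPKM the leading scaffold was EFS in every shNC library and BCAR1 in every shACAT2 library. By fragments BCAR1 led in all of them.

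The level of EFS over that of BCAR1 was 1.56, 1.70 and 1.60 in the shNC libraries and 0.887, 0.972 and 0.930 in the shACAT2 libraries. This ratio was formed after the values were seen and is a description without a test. It held together more closely across the shACAT2 libraries than either gene did, since BCAR1 and EFS were both lowest in shACAT2-3 and both highest in shACAT2-1. The summed CAS level was 24.1, 21.9 and 22.6 FPKM in the control libraries and 27.5, 22.8 and 18.3 FPKM in the knockdown libraries, so the sums overlapped.

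**Figure D2:**
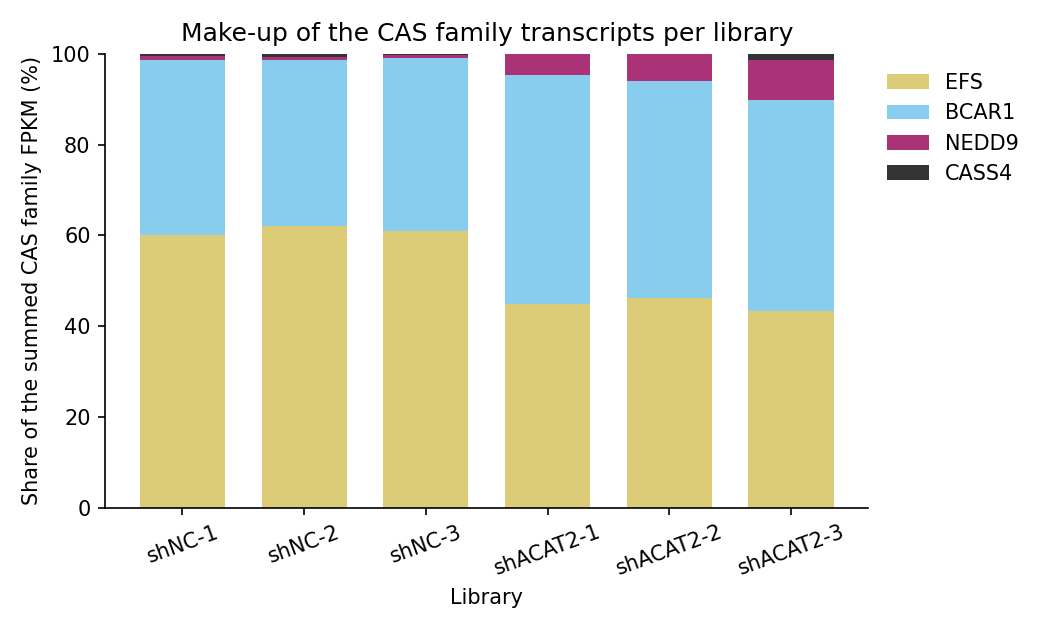
Share of each scaffold in the summed CAS family FPKM (%), stacked for each of the 6 libraries. EFS takes 60.1 to 62.2% of the control bars and 43.3 to 46.3% of the knockdown bars, and the NEDD9 band grows from at most 0.837% to at least 4.58%.

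Among the kinases, SRC was lower in every knockdown library. SRC, the non-receptor tyrosine kinase that phosphorylates the CAS scaffolds together with FAK, lies on chr20:37344685-37406050. It measured 1.49, 1.33 and 1.27 FPKM in the shNC libraries and 0.672, 0.707 and 0.629 FPKM in the shACAT2 libraries. The groups did not overlap, and the mean in shNC cells (1.36 ± 0.110 FPKM) was 2.03 times that in shACAT2 cells (0.669 ± 0.0393 FPKM, SD, n = 3 each). The exact permutation test gave its smallest two-sided p, 0.1. SRC passed the filter through the shNC libraries alone, the group where it was higher. Its p-values below are therefore given as a description.

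The SRC difference was −0.50 on the log2(FPKM + 1) scale (SE 0.13, −0.80 to −0.20), just outside the threshold (limma adjusted p = 0.0702). In limma-voom, which fits the 61 to 147 fragments per library directly, the difference was −1.07 and SRC was called (adjusted p = 0.00616). Over the 13 alternatives the adjusted p of SRC ran from 0.00616 to 0.242, and limma-voom was the only alternative that called it.

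NEDD9 and SRC thus exchanged their order. The level of NEDD9 was 0.136, 0.126 and 0.136 times that of SRC in the shNC libraries, and 1.87, 1.92 and 2.53 times in the shACAT2 libraries. SRC was a minor part of its own kinase family, since YES1 alone held 74.9 to 89.3% of the summed level of SRC, YES1, FYN and LYN. The share of SRC in that sum was 5.55%, 3.88% and 3.47% in the control libraries and 2.88%, 1.94% and 2.06% in the knockdown libraries. These ratios too were formed after the values were seen.

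PTK2, which encodes FAK, whose own phosphorylation creates a docking site for SRC, lies on chr8:140657900-141002216. It measured 4.77, 5.20 and 5.30 FPKM in the shNC libraries and 3.63, 4.19 and 4.62 FPKM in the shACAT2 libraries. The groups did not overlap, but only 0.157 FPKM lay between the highest knockdown and the lowest control library. The PTK2 difference was −0.25 (−0.49 to −0.0047) on the log2(FPKM + 1) scale, which did not pass the threshold (limma adjusted p = 0.205, unadjusted p = 0.0467).

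PTK2B encodes PYK2, the calcium-responsive relative of FAK, and lies on chr8:27311482-27459391. It was under the filter in both groups. Its level was 0.412, 0.412 and 0.504 FPKM in the shNC libraries and 0.216, 0.220 and 0.479 FPKM in the shACAT2 libraries. The first pair of knockdown libraries lay below all control libraries and shACAT2-3 among them, so the groups overlapped. The PTK2B values rest on 26 to 69 fragments per library, and in shACAT2-3 the rate of genes silent elsewhere would give 5.89 of its 57. In the fit without a filter the PTK2B difference was −0.15 on the log2(FPKM + 1) scale (limma adjusted p = 0.669).

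CRKL and CRK, the adaptors that read the phosphorylated scaffold, had the highest FPKM of the 10 genes. With PXN they had the smallest differences among the 8 tested. CRKL, the CRK-like adaptor of SH2 and SH3 domains, lies on chr22:20917426-20953749. It measured 40.7, 37.0 and 35.7 FPKM in the shNC libraries and 34.4, 34.9 and 37.7 FPKM in the shACAT2 libraries. The groups overlapped, and the log2(FPKM + 1) difference was −0.08 (−0.32 to 0.16, limma adjusted p = 0.688).

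CRK, its close relative on chr17:1420689-1463162, measured 15.4, 18.2 and 18.0 FPKM in the shNC libraries and 15.6, 19.2 and 16.1 FPKM in the shACAT2 libraries. The log2(FPKM + 1) difference of CRK was −0.02 (−0.30 to 0.27, limma adjusted p = 0.945), and its sign changed with the library left out. PXN, on chr12:120210439-120265771, measured 7.38, 6.31 and 6.51 FPKM in the shNC libraries and 6.99, 6.51 and 5.66 FPKM in the shACAT2 libraries. Its groups overlapped, with a log2(FPKM + 1) difference of −0.07 (−0.32 to 0.19, limma adjusted p = 0.754), and 12.4% of its exon bases are shared with PXN-AS1 and another gene on the opposite strand.

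**Figure D3:**
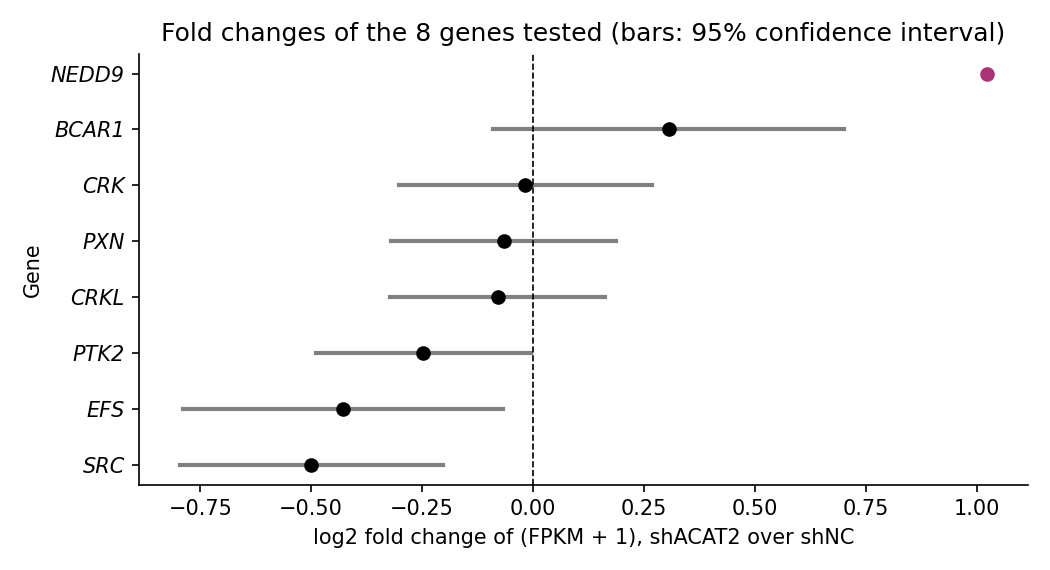
Difference between groups on the log2(FPKM + 1) scale, shACAT2 over shNC, for the 8 genes above the filter, with 95% confidence intervals from limma as bars. NEDD9, drawn without a bar because it was chosen for this contrast, stands at 1.02. The intervals of BCAR1, CRK, PXN and CRKL include 0 and those of PTK2 and EFS lie below it. SRC passed the filter through its higher group alone, so nothing is read from its interval.

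In the control cells the order of FPKM was CRKL, CRK, EFS, BCAR1, PXN, PTK2, SRC, PTK2B, NEDD9 and CASS4. No neighbours in that order overlapped across the shNC libraries. In the knockdown cells it was CRKL, CRK, BCAR1, EFS, PXN, PTK2, NEDD9, SRC, PTK2B and CASS4. There BCAR1 and EFS overlapped in range, as did PTK2B and CASS4, while NEDD9 and SRC stayed apart. Changes in the order therefore involved EFS with BCAR1 and NEDD9 with SRC and PTK2B.

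Of the 10 genes, 8 passed the filter, 2 of them (NEDD9 and SRC) through 1 group alone. NEDD9, whose difference chose the set, is left out of the counts that follow. SRC is kept in them, although it was tested only through the group where it was higher, and nothing is read from its part in them. Over all 13832 genes tested, 5.1% were called, 3.3% higher and 1.81% lower in shACAT2 cells. Of the 7 tested genes other than NEDD9, limma called 0 and 3 had an unadjusted p under 0.05, against 23.5% of all genes. Limma-voom called 1 of the 7, SRC, against 8.42% of all genes. The groups did not overlap for 3 of the 7 (EFS, PTK2 and SRC), against 30.7% of all genes. Taking the replicate number as a block changed none of these calls.

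Genes whose log2(FPKM + 1) pattern over the 6 libraries was most like that of NEDD9 included CAV2, MAPK9, MARK3 and KLF10. CAV2 encodes caveolin-2, a coat protein of membrane pits called caveolae, and measured 1.26, 1.21 and 1.19 FPKM in the shNC libraries and 3.18, 3.28 and 3.83 FPKM in the shACAT2 libraries. Its Pearson correlation with NEDD9 was 0.9996, and like NEDD9 it was highest in shACAT2-3. KLF10, a zinc finger factor induced by TGF-beta, went from a mean of 2.87 to 6.43 FPKM with a correlation of 0.9972. MAPK9, which encodes the kinase JNK2, went from 8.80 to 12.6 FPKM and MARK3, a microtubule affinity kinase, from 14.8 to 18.2, with correlations of 0.9976 and 0.9973. The 6 points fall into 2 groups, so these correlations mostly state the difference between groups.

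Around the 10 genes, 99 genes that work with them were read in 5 lists, of which 76 passed the filter. Limma called 5 higher and 1 lower, or 7.89% of those tested, against 5.1% of all genes. Among the 5, LIMS2 passed the filter through its higher group alone, and nothing is read from its call. The median difference of the 76 was 0.03 on the log2(FPKM + 1) scale, against 0.016 over all genes. With the replicate number as a block, 14 of the 76 were called, 11 higher and 3 lower, the 6 included, and 12.5% of all genes. Without shNC-2, without shNC-3 or without shACAT2-2, limma called 0 of the 76. Over all genes it then called 101 of 13875, 63 of 13882 and 129 of 13959. Without shNC-1 it called 1 of the 76, against 135 of 13918 over all genes. Without the filter, 1 of the listed genes was called, against 0.508% of all genes then tested. In the reported fit, 25 of the 76 had an unadjusted p under 0.05, against 23.5% of all genes, and limma-voom called 12, against 8.42%.

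The adhesion plaque list, the proteins that join integrins to actin, held 5 of the 6 calls. Of its 34 genes 25 were tested, and 4 were called higher and 1 lower (20%, against 5.1% of all genes). Over all genes 3.3% were called higher and 1.81% lower. Its median difference was 0.17, against 0.016 over all genes. Limma called 0 of the 25 without shNC-2, without shNC-3, without shACAT2-2 or with shNC-2 and shNC-3 averaged. AJUBA, a LIM protein of the zyxin family, rose from 12.4 ± 0.9499 to 26.3 ± 3.73 FPKM (SD, n = 3 each, 1.03 on the log2 scale, limma adjusted p = 0.0106). TGFB1I1, which encodes HIC-5, a close relative of paxillin, rose from 1.35 ± 0.154 to 3.43 ± 0.869 FPKM (0.90, limma adjusted p = 0.0258). PXN itself and LPXN, another paxillin relative (0.944 to 1.11 FPKM, limma adjusted p = 0.63), were not called.

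VCL encodes vinculin, the protein that binds talin and actin under load. It measured 38.6, 36.7 and 38.0 FPKM in the shNC libraries and 52.9, 54.6 and 61.0 FPKM in the shACAT2 libraries. Vinculin transcripts rose by 0.56 on the log2(FPKM + 1) scale (limma adjusted p = 0.0308), with 11.1% of its exon bases shared with AP3M1 on the opposite strand. LIMS2, a partner of integrin-linked kinase, rose from 0.265 ± 0.0403 to 1.25 ± 0.182 FPKM (0.83, limma adjusted p = 0.0287). It passed the filter through the shACAT2 libraries alone, the group where it was higher, so nothing is read from its call. FERMT1, which encodes the integrin activator kindlin-1, fell by 0.50 on the log2 scale, from 8.82 ± 0.504 to 5.94 ± 0.518 FPKM (limma adjusted p = 0.0343). The 5 called plaque genes did not overlap between groups, which restates their calls and adds nothing to them. No overlap was seen for 12 of the 25 plaque genes tested, these 5 (with LIMS2) included, against 30.7% of all genes. Each of the 5 lost its call when 1 library was left out, with limma adjusted p up to 0.0777 for AJUBA and up to 0.127 to 0.172 for the others.

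In the list of FAK and paxillin signalling, 21 of 25 genes were tested and 1 was called (4.76%, against 5.1% of all genes). RHOA, the GTPase of stress fibres, measured 137, 115 and 113 FPKM in the shNC libraries and 235, 188 and 222 FPKM in the shACAT2 libraries. RHOA rose by 0.82 on the log2(FPKM + 1) scale (limma adjusted p = 0.0245, up to 0.138 with 1 library left out). Under the block, 4 of the 21 were called, against 12.5% of all genes. RHOA and PAK2, a kinase downstream of RAC1, were higher, and the exchange factor SOS1 and the ARF regulator ASAP2 were lower.

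Limma called 0 genes in the other lists, while 3 of the 13 CAS and CRK partners tested, 2 of the 4 tested SRC family genes with their regulator CSK, and 4 of the 13 invadopodia genes had an unadjusted p under 0.05, against 23.5% of all genes. RAC1, the GTPase that CAS and CRK signal to, was at 116 FPKM in shNC and 155 in shACAT2 cells (limma adjusted p = 0.0904, 0.0338 with the block). The other partners of that kind were RAP1A, at 6.25 and 8.18 FPKM, and the kinase ABL1, at 27.98 and 22.5 FPKM. Of the SRC relatives, FYN was at 1.71 and 1.16 FPKM and LYN at 2.98 and 2.25 FPKM, with limma adjusted p = 0.176 and 0.189. Their groups did not overlap, as for 2 of the 4 genes tested in that list and 30.7% of all genes. Limma-voom called 2 of the 13 CAS and CRK partners, 1 of the 4 genes of the SRC family list and 1 of the 13 invadopodia genes, against 8.42% of all genes. Among the invadopodia genes, the ARP2/3 subunits ACTR3 (15.0 and 20.6 FPKM) and ARPC2 (24.9 and 35.9 FPKM) had limma adjusted p = 0.0503 and 0.0548, and passed the threshold under the block (0.028 and 0.0255). The others with an unadjusted p under 0.05 were the matrix protease MMP14, at 25.7 and 37.4 FPKM, and the scaffold SH3PXD2A, which went the other way, at 9.89 and 7.44 FPKM (limma adjusted p = 0.127 and 0.0787). ACTR2, a further subunit of ARP2/3, was at 94.9 and 95.2 FPKM (limma adjusted p = 0.995). These genes outside the threshold were named after their values were seen.

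**Figure D4:**
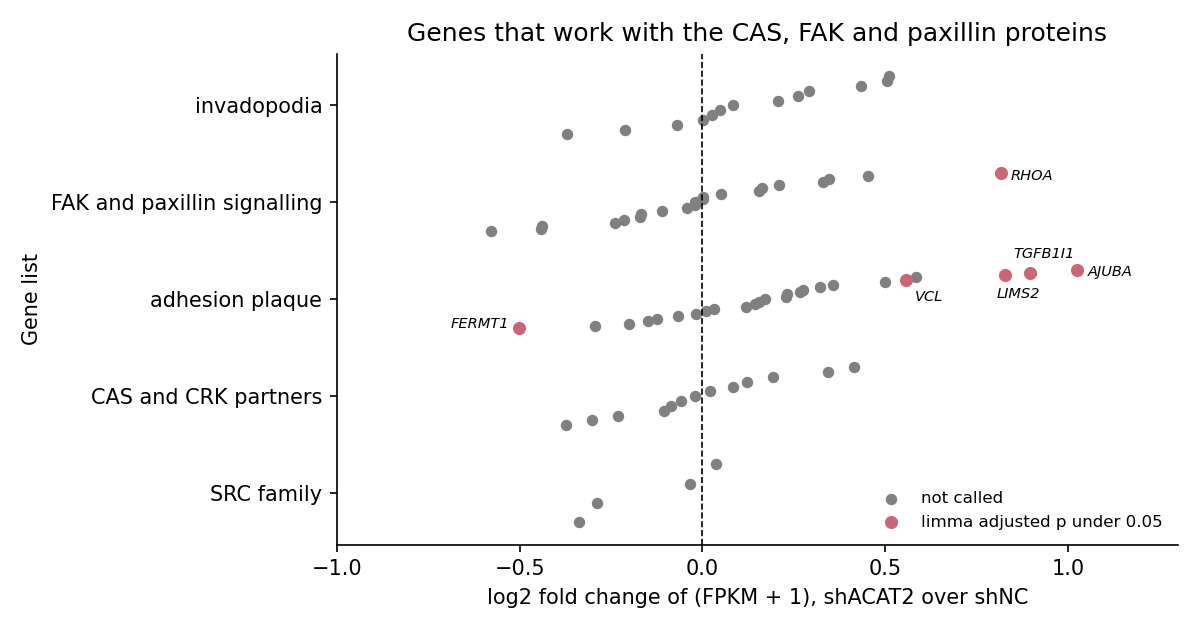
Differences between groups on the log2(FPKM + 1) scale, shACAT2 over shNC, for the 76 tested genes of the 5 lists, 1 point per gene and 1 row per list. Red points are the 6 genes called by limma, of which AJUBA (1.03), TGFB1I1, LIMS2, RHOA and VCL lie to the right and FERMT1 (−0.50) to the left.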

How the data were processed

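The authors deposited FPKM values per gene for 6 RNA-seq libraries, from total RNA of 3 shNC and 3 shACAT2 cultures, described as biological replicates. The submitters' processing notes name HISAT2 2.0.5, featureCounts 1.5.0-p3, DESeq2 1.20.0 and hg38. The strand setting is not given in the sources used here, so reads of overlapping antisense genes cannot be told apart. The length of each of the 58735 genes is the sum of its GENCODE 29 exons, and value times length gave whole fragments (within 0.1) for 100% of values. No per-sample column was left unused.

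Values were fitted as log2(FPKM + 1) with limma 3.58.1 (trended prior, two-sided, R 4.3.3) for genes whose mean reached 1 FPKM in at least 1 group, with Benjamini-Hochberg adjustment over all genes tested and a threshold of 0.05. Sums, promoter windows and plots used Python 3.11.15, numpy 2.4.6, pandas 2.3.3 and matplotlib 3.10.9. The alternatives were a pseudocount of 0.1, no filter, other scalings, a replicate block, limma-voom on recovered fragments, an average of shNC-2 with shNC-3, and each library left out.

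The members and lists were chosen with earlier results of these data known. All members were named, with the called genes of each list (at most 6 by p), the 5 genes most like NEDD9 (of which 1 is not reported here), and ACAT2. Same-numbered libraries deviated together from their group means (correlations 0.445, 0.126 and 0.171, each above 0.1). Numbers 2 and 3 correlated as well when crossed (0.198 and 0.141), so these values cannot show that they are pairs. The reported fit was unpaired, with the replicate number as a block only as an alternative.

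The fit was tested on simulated data. It first missed the limit set for false calls, which lay mostly in short genes with few fragments, and the limit was afterwards read over genes with at least 10 fragments on average. The share of all genes called includes such short genes. Every tested gene named here has more fragments.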

Additional observations from a re-analysis of the deposited data

How the results depend on the processing

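The direction of the difference did not change for BCAR1, EFS, PTK2 and CRKL in any of the 13 alternatives. Nor did it for NEDD9 and SRC, but nothing is read from that. NEDD9 was chosen for its difference between these libraries, and SRC passed the filter through its higher group alone. The CRK difference, close to 0, turned to 0.019 when the similar pair shNC-2 and shNC-3 was averaged, and leaving out 1 library gave −0.104 to 0.035, positive without shNC-2, without shNC-3, without shACAT2-1 (0.035) or without shACAT2-3. PXN turned to 0.0056 without shACAT2-3, the other leave-outs reaching down to −0.126. The counts of members called that follow include NEDD9, which was chosen for this contrast, and nothing is read from its call. They also include SRC, which passed the filter through its higher group alone, and nothing is read from its call either. Of the 8 members tested, 1 (NEDD9) was called as reported, 2 (NEDD9 and SRC) with limma-voom and 0 with that pair averaged. Leaving out 1 library gave 0 to 1, namely 0 without any single shNC library or without shACAT2-2. Of the pathway genes, 6 were called as reported, 14 with the replicate block, 12 with limma-voom, 1 without a filter and 0 with the pair averaged. Leaving out 1 library gave 0 to 8. With the averaged libraries, 19 of the 76 pathway genes tested had an unadjusted limma p under 0.05, against 15.4% of all genes. Over all genes the 706 calls became 1727 with the block, 1165 with limma-voom, 209 without a filter, 83 with the averaged libraries, and 63 to 862 with 1 library left out. The block changed no call of a member. A fit without a filter adjusts over more genes, and leaving out or averaging libraries leaves fewer samples. Leaving out 1 library gave both more and fewer calls over all genes, 862 without shACAT2-1 and 63 without shNC-3. The cause of these changes was not tested. Depth limits the precision of CASS4 (1 to 19 fragments per library), PTK2B (26 to 69) and NEDD9 in shNC cells (28 to 32).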
